A study of Mus musculus with 16 samples.

Results

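The genes described are those that encode the Wnt ligands, which are secreted lipid-modified proteins, and those that export, receive, block or relay them in mouse bone. Members were the genes of the RNA table with the symbols of the Wnt, Fzd, Sfrp and Dkk families, together with Lrp4, Lrp5, Lrp6, Wif1, Frzb, Notum, Axin1, Axin2, Ctnnb1, Tcf7, Nkd1, Nkd2, Porcn and Wls, wherever the mean count was above 0. That gave 48 members among 19049 genes with a mean above 0, and 4 further symbols (Dkk4, Wnt3a, Wnt7a and Wnt7b) were listed with a mean of 0. A count of 0 allows up to 3 counts over all libraries. Fzd10os, a transcript named for the strand opposite Fzd10, fell under the rule by its symbol and encodes no receptor. The members were chosen by symbol and a mean count above 0 and not by fold change, though with earlier results of these data known.

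The samples were bone of wild type mice after ovariectomy, a surgical model of estrogen loss, or after a sham operation. Each arm had 4 input libraries, which hold RNA before any pull-down, and 4 immunoprecipitated (IP) libraries, which hold fragments pulled down with an antibody to N6-methyladenosine (m6A), a methyl mark on internal adenosines of RNA. In the labels the treatment field gives ovariectomy for all 8 IP libraries, and the arm of these was taken from the title (OVX or NC). The labels give neither age nor strain, and whether the 4 libraries of an arm came from separate animals is not stated, so p-values may measure technical spread. The deposited tables do not record which arm stands on top of the fold changes. Each sign is therefore printed just as it was deposited, and none is read as higher or lower after ovariectomy.

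In the canonical pathway a Wnt ligand binds a Frizzled receptor and the coreceptor Lrp5 or Lrp6, which stops the Axin complex from marking beta-catenin (Ctnnb1) for destruction, so that beta-catenin reaches the nucleus and acts with TCF and LEF factors. Secreted antagonists work outside the cell, either by holding the ligand (Sfrp proteins, Frzb, Wif1), by stripping its lipid (Notum) or by binding the coreceptor (Dkk1). In bone the pathway is known for driving osteoblast formation, and loss of LRP5 lowers bone mass in humans.

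Markers of bone were present, as the tissue label says, and so was RNA of other tissues. The authors' deposited table gave a mean normalized count of 99868 for Col1a1, the main collagen of bone, and of 8758 for the osteocyte gene Dmp1. Skeletal muscle was also present, with a mean of 336368 for the myosin gene Myh4 in the authors' deposited table. Mean counts are the average over the 8 input libraries of counts divided by size factors, and their sum over all genes was 43717045. No transcript lengths were at hand, so levels were not compared between genes.

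Wnt genes had mostly negative fold changes, and few of them passed the threshold one by one. The authors' deposited table held an adjusted p for 39 of the 48 members, and 36 of these had a negative fold change and 3 a positive one. The members' median log2 fold change was -0.34, beside -0.02 over all 15396 tested genes, of which 53.3% were negative in the authors' deposited table. With that median of all tested genes subtracted, 36 members were again negative. The median is so near 0 that this step could hardly change a sign, and it adds no support. At an adjusted p under 0.05, 5 members were called in the authors' deposited table, Sfrp2, Fzd7, Wls, Lrp4 and Porcn, all negative and none positive. Over all tested genes 12.2% were called, 6.11% with a negative and 6.07% with a positive sign, and the members' share of calls, 12.8%, was near that background. At an unadjusted p under 0.05 there were 12 members (30.8%) beside 25.7% of all tested genes in the authors' deposited table. In bulk RNA of this kind, fewer cells of a type and less RNA per cell cannot be told apart.

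**Figure D1:**
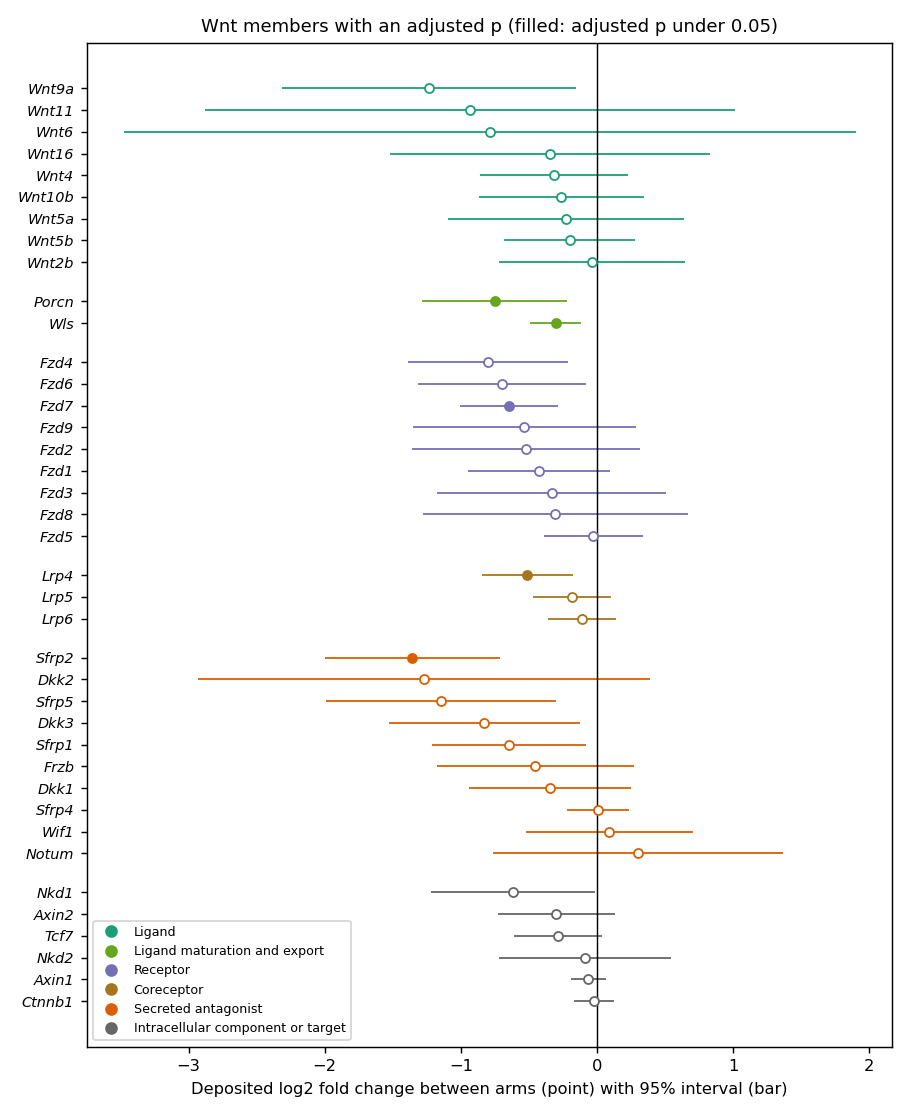
Log2 fold change between the arms (horizontal axis, sign as deposited) of the 39 members with an adjusted p, in groups by role. Points are the deposited values, bars are 95% intervals of 1.96 standard errors, and filled points mark the 5 members with an adjusted p under 0.05; 36 points lie left of 0 and the intervals of 27 members span 0.

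The negative share of the members stood above that of all tested genes in each class of mean count. Among tested genes with a mean under 100, 11 of 12 members were negative, beside 64.0% of 2672 genes in the authors' deposited table. Between 100 and 500 counts, 13 of 13 members were negative, beside 60.6% of 3379 genes in the authors' deposited table. From 500 to 1000 counts the numbers were 5 of 6 members and 51.2% of 2161 genes in the authors' deposited table. At 1000 counts or more, 7 of 8 members were negative, beside 46.5% of 7184 genes in the authors' deposited table. These are descriptions with no test of the group, and errors can be shared between members, since all were measured in the same 8 libraries.

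**Figure D2:**
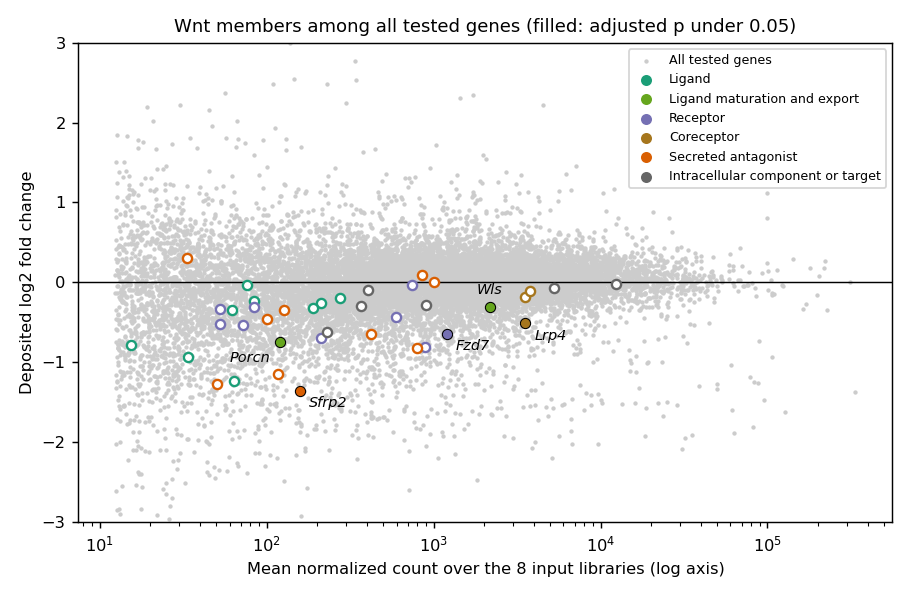
Mean normalized count over the 8 input libraries (horizontal, log axis) against the deposited log2 fold change (vertical) of all 15396 tested genes (grey) and the 39 tested members (coloured by role, filled where the adjusted p is under 0.05). The members lie mostly under 0 over the whole range of counts, from Wnt6 at 15.4 to Ctnnb1 at 12435, and 21 genes lie beyond the vertical axis.

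The ligands themselves had few counts, and none was called by the adjusted p of the authors' test, while 1 had an unadjusted p under 0.05. Of 19 Wnt symbols, 16 had a mean above 0 and 9 had an adjusted p, all 9 negative, with a median of -0.32 in the authors' deposited table. Wnt9a, a ligand of forming joints, had the largest difference of the tested ligands, at -1.24 ± 0.55 (SE) with a mean of 63.7 counts and an adjusted p of 0.125 in the authors' deposited table. Wnt10b, which turns marrow stromal precursors from fat towards bone in mice, had -0.26 ± 0.31 at 212 counts in the authors' deposited table. Its 95% interval ran from -0.87 to 0.34. Wnt16, an osteoblast product that protects cortical bone in mice, had -0.34 ± 0.60 at 62.3 counts in the authors' deposited table. That interval, from -1.52 to 0.83, leaves room for sizeable differences in both directions.

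The other tested ligands were also negative and had intervals that span 0. Wnt5a, which acts on osteoclast precursors through Ror2 and without beta-catenin in mice, had -0.23 ± 0.44 at 84.0 counts in the authors' deposited table. Its relative Wnt5b had -0.20 ± 0.24 at 274 counts in the authors' deposited table, and the interval ran from -0.68 to 0.28. Wnt4 had -0.32 ± 0.28 at 190 counts and Wnt2b had -0.04 ± 0.35 at 76.5 counts in the authors' deposited table. Wnt11 and Wnt6, at 33.7 and 15.4 counts, had -0.93 ± 0.99 and -0.79 ± 1.37 in the authors' deposited table, errors too wide to place either of them.

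For the members with a mean under 16 the counts of single libraries could be read from the deposited mean. A gene with a single count in a single library has the smallest possible mean, and the table's 8 smallest means give the worth of 1 count in each of the 8 libraries. Genes with 1 such count had positive fold changes for 4 of the libraries and negative ones for the other 4, which sorts the libraries into the arm on the positive side (P1 to P4) and the arm on the negative side (N1 to N4), without telling which of them is ovariectomy. The numbers 1 to 4 carry no order of the labels. Each of the 2220 genes with a mean above 0 and under 3 had exactly 1 solution in whole counts, and each of the 10 members had exactly 1 as well.

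Several ligands were seen in a single library. Wnt1, which carries mutations in inherited brittle bone disease in humans, had 10 counts in P2 and 0 in the other libraries. Wnt3 had 8 counts in P1 and 0 elsewhere. Wnt8a had 8 counts in N2 alone, and Wnt8b had 13 counts in N4 alone. The positive fold changes of Wnt1 and Wnt3 and the negative ones of Wnt8a and Wnt8b therefore each rest on 1 library and give no comparison between the arms. Wnt2 had 4 counts in P1 and 7 in N1. Wnt9b had 4 counts in P1, 8 in P4 and 6 in N4.

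A few low members were spread over more libraries. Wnt10a had 14, 22, 12 and 19 counts in P1 to P4, and 11, 8, 11 and 0 in N1 to N4. Divided by size factors these became 11.3, 19.1, 13.8 and 21.9 in P1 to P4, and 9.93, 7.54, 11.8 and 0 in N1 to N4. The arm on the positive side was the higher one, with a slight overlap of P1 and N3, and the authors' deposited table gave 1.17 ± 0.80 with an unadjusted p of 0.143 and no adjusted p. Wnt6 had 30, 0, 6 and 12 counts in P1 to P4, and 14, 0, 40 and 20 in N1 to N4. Both arms held a library with 0 and one with at least 30, so they overlapped over nearly their whole range. Fzd10, a receptor, had 2, 20, 4 and 0 counts in P1 to P4, and 7, 6, 7 and 5 in N1 to N4. The arm on the positive side was uneven, with 20 of its 26 counts in P2. Fzd10os had 5, 10, 0 and 0 counts in P1 to P4, and 0, 4, 0 and 13 in N1 to N4, also with overlapping arms.

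**Figure D3:**
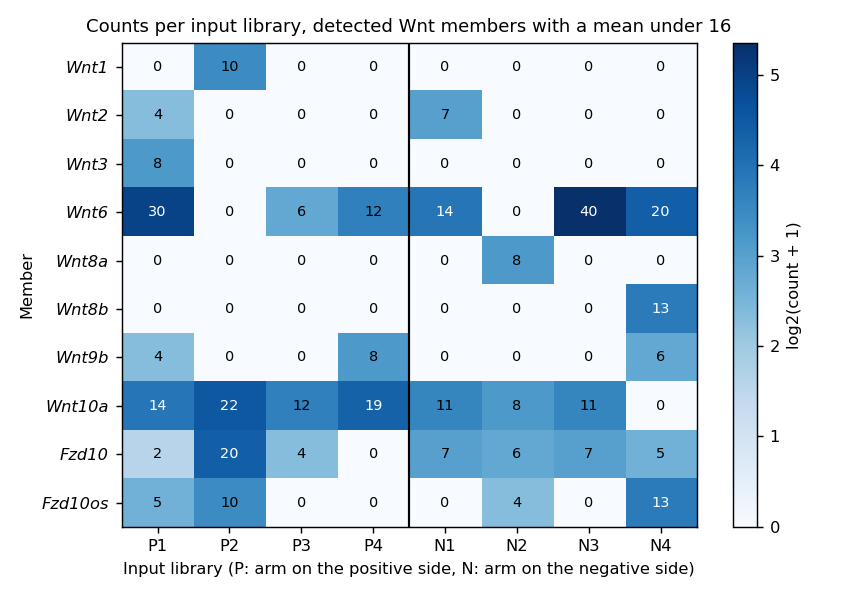
Counts in each of the 8 input libraries (columns) of the 10 members with a mean under 16 (rows), read from the deposited means; colour is log2(count + 1). P and N mark the arms on the positive and negative side of the fold change. Wnt1, Wnt3, Wnt8a and Wnt8b each have counts in 1 library only, while Wnt10a has counts in 7 of 8.

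Both genes that prepare ligands for release were called with a negative sign, beside 6.11% of all tested genes. A group this small gives no share that can be compared with that background. Wls, the carrier that takes lipid-bearing Wnt proteins to the cell surface, had -0.30 ± 0.10 at a mean of 2170 counts, with an adjusted p of 0.0195, in the authors' deposited table. That is a ratio of 0.810 between the arms, with a 95% interval from 0.711 to 0.922. Porcn, the enzyme of the endoplasmic reticulum that attaches the lipid, had -0.75 ± 0.27 at 120 counts, with an adjusted p of 0.0474, in the authors' deposited table. Porcn lay just inside the threshold, and its adjusted p was 0.0575 when the Benjamini-Hochberg adjustment ran over every gene with a p. The ratio of Porcn was 0.594, with an interval from 0.411 to 0.859.

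All 9 tested Frizzled receptors were negative, with a median of -0.52, in the authors' deposited table. Of these 1 was called (11.1%), near the 12.2% of all tested genes. Fzd7 had -0.65 ± 0.18 at 1201 counts with an adjusted p of 0.0082 in the authors' deposited table. Its ratio between the arms was 0.639, with a 95% interval from 0.498 to 0.821. Fzd4, also the receptor for norrin in retinal vessels, had a larger fold change with a larger error, -0.80 ± 0.30 at 895 counts, and its adjusted p of 0.0564 missed the threshold in the authors' deposited table. Fzd6 had -0.70 ± 0.31 with an adjusted p of 0.128 in the authors' deposited table.

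The remaining receptors could not be separated from 0. Fzd1 had -0.43 ± 0.27 at 594 counts in the authors' deposited table. Fzd9, whose loss lowers bone formation in mice, had -0.53 ± 0.42 and Fzd2 had -0.52 ± 0.43 in the authors' deposited table. Fzd3 had -0.33 ± 0.43 and Fzd8 had -0.31 ± 0.50 in the authors' deposited table, at 52.9 and 84.1 counts. Fzd5 stood closest to 0 of the 9, at -0.03 ± 0.19 with an interval from -0.39 to 0.34, in the authors' deposited table. Whether Fzd7 and Fzd5 differ from each other was not tested.

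Among the coreceptors only Lrp4 was called. Lrp4, which anchors the antagonist sclerostin on osteocytes and also receives agrin at the nerve-muscle junction, had -0.51 ± 0.17 at 3535 counts with an adjusted p of 0.0312 in the authors' deposited table. Its ratio was 0.702, with a 95% interval from 0.555 to 0.886. The signalling coreceptors were close to 0, with -0.18 ± 0.14 for Lrp5 and -0.11 ± 0.13 for Lrp6 in the authors' deposited table. Their intervals ran from -0.47 to 0.10 and from -0.36 to 0.14, and both overlap the interval of Lrp4. Whether Lrp4 differs from Lrp5 or Lrp6 was not tested. The muscle markers, a fixed list (Acta1, Ckm, Myh1, Myh4 and Tnnt3), were all negative, with a median of -1.37 in the authors' deposited table. Of these 5, 1 was called and all had an unadjusted p under 0.05, with standard errors from 0.52 to 0.66. The part of these markers in the value of Lrp4 was not tested.

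Among members with an adjusted p the secreted antagonists had the widest range of all roles, from -1.36 to 0.30 in the authors' deposited table. Sfrp2, which binds Wnt ligands through a Frizzled-like domain, had -1.36 ± 0.33 at 159 counts with an adjusted p of 0.0013 in the authors' deposited table, the largest fold change and the smallest p among the tested members. That is a ratio of 0.390 between the arms, with a 95% interval from 0.250 to 0.610. Sfrp5, a relative, had -1.15 ± 0.43 at 116 counts and an adjusted p of 0.0591, just outside the threshold, in the authors' deposited table. Sfrp1 had -0.65 ± 0.29 with an adjusted p of 0.125 and Frzb had -0.45 ± 0.37 in the authors' deposited table. Sfrp4, at 1001 counts, had 0.01 ± 0.12 in the authors' deposited table, and its interval from -0.22 to 0.23 does not reach the value of Sfrp2.

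The 3 tested Dickkopf genes were negative and none was called by the authors' test, while 1 had an unadjusted p under 0.05. Dkk3, which unlike its relatives is not a classical coreceptor blocker, had -0.83 ± 0.36 at 797 counts with an adjusted p of 0.113 in the authors' deposited table. Dkk1, the coreceptor blocker best known for limiting bone formation, had -0.35 ± 0.30 at 128 counts, and Dkk2 had -1.27 ± 0.85 at 50.8 counts, in the authors' deposited table. The 3 positive members with an adjusted p were all antagonists and all close to 0 for their error. Besides Sfrp4 they were Wif1, a Wnt-binding inhibitor, with 0.09 ± 0.31, and the lipid-removing enzyme Notum, with 0.30 ± 0.54, in the authors' deposited table.

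The 6 intracellular members were negative and none was called by the authors' test, while 1 had an unadjusted p under 0.05. Ctnnb1 had -0.02 ± 0.07 at 12435 counts in the authors' deposited table, and its interval from -0.17 to 0.12 is among the narrowest of the members. Axin1, the scaffold of the destruction complex, had -0.06 ± 0.06, with an interval from -0.19 to 0.06, in the authors' deposited table. Axin2, a scaffold that is also a widely used readout of canonical signalling, had -0.30 ± 0.22 at 367 counts, with an interval from -0.73 to 0.13, in the authors' deposited table. Nkd1, a feedback inhibitor that binds Dishevelled, had -0.62 ± 0.31 with an adjusted p of 0.182, and its relative Nkd2 had -0.09 ± 0.32, in the authors' deposited table. Tcf7, a nuclear partner of beta-catenin that is also abundant in T cells, had -0.29 ± 0.17 with an adjusted p of 0.269 in the authors' deposited table.

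Of the 5 called members, which share a negative sign, Sfrp2, Fzd7 and Wls are shown with the bases before their annotated starts. RefSeq promoters on GRCm38.p6 were matched for 31 of the 48 members, 36 promoters in all. Porcn and Lrp4 had no matched promoter and could not be shown. The 250 bases before the start are given 5' to 3' on the gene's strand. Capitals mark CTTTG, the core letters of TCF and LEF sites, and GGTCA, an arm of the estrogen response element, each read on both strands. The Sfrp2 window is chr3:83766071-83766320 on the plus strand, that of Fzd7 is chr1:59481897-59482146 on the plus strand and that of Wls is chr3:159839400-159839649 on the plus strand.
Sfrp2: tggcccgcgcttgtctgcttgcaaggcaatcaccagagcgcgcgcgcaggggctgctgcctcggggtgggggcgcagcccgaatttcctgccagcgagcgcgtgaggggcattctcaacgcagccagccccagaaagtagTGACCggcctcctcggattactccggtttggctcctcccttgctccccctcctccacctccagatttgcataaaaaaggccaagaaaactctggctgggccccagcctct
Fzd7: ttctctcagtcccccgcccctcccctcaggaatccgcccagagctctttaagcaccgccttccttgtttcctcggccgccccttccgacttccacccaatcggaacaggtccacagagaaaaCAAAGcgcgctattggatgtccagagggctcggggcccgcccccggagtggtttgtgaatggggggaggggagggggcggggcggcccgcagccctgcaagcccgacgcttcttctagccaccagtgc
Wls: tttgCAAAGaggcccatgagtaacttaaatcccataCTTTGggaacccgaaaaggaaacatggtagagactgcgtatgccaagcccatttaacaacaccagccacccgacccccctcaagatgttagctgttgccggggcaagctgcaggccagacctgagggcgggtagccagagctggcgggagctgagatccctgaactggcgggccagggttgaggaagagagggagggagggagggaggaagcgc
The Sfrp2 window held 1 GGTCA, read on the other strand, and no CTTTG. Fzd7 held 1 CTTTG and Wls held 2, and GGTCA was in neither of them. In all, CTTTG occurred in 41.7% of the members' promoters beside 48.6% of all 32851, and GGTCA in 41.7% beside 35.2%. The full element, an arm with its reverse complement 3 bases further on, was in 0 of the 36 member promoters and in 21 of all 32851. Letters this short match often, and a match is no evidence of binding. All 3 windows were richer in G and C (65.2% for Fzd7, 63.6% for Sfrp2 and 58.0% for Wls) than the median promoter (52.4%).

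Marker lists of several other cell types were negative throughout in the same table, those of B cells were positive and others were mixed. Over all tested genes 53.3% were negative and 12.2% were called. A single call in lists this short is little beyond that share, and no list was tested as a group. Of the lists fixed by cell type, marrow stroma had 4 of 4 negative with 2 called and a median of -0.54, and fibroblast and periosteum had 4 of 4 negative with 1 called and a median of -0.69, in the authors' deposited table. Endothelial genes were 5 of 5 negative with 1 called (median -0.34) and Schwann cell genes 4 of 4 negative with 2 called (median -0.79) in the authors' deposited table. Osteocyte genes were 4 of 4 negative with 0 called and 1 at an unadjusted p under 0.05 (median -0.27), and osteoblast genes 3 of 6 negative with 2 called, both positive (median 0.01), in the authors' deposited table. Osteoclast genes were 5 of 5 negative with 1 called (median -0.69) and adipocyte genes 4 of 4 negative with 1 called (median -0.52) in the authors' deposited table. Skeletal muscle genes, also given with Lrp4, were 5 of 5 negative with 1 called and had the lowest median of the lists, -1.37. Chondrocyte genes ran the other way, with 3 of 4 positive and 0 called, also 0 at an unadjusted p under 0.05 (median 0.30), in the authors' deposited table. B cell precursor genes were 4 of 4 called positive (median 2.44) and B cell genes 5 of 5 positive with 4 called (median 1.02) in the authors' deposited table. T cell genes were 3 of 5 positive with 1 called, erythroid genes 2 of 3 positive with 1 called, and neutrophil genes 2 of 5 positive with 0 called and 0 at an unadjusted p under 0.05, in the authors' deposited table. How far these lists account for the sign of the Wnt members was not tested.

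Beyond the members, 70 other genes of Wnt signalling had been fixed as a list, and 67 had an adjusted p. Of these, 41 were negative and 26 positive, with a median of -0.09, and 4 were called negative and 3 positive in the authors' deposited table, 10.4% beside the 12.2% of all genes. The fixed list named no groups, and the split that follows was not part of it. Calls were 5 of 16 for other secreted modulators, Lgr receptors and further membrane proteins, in the authors' deposited table. They were 1 of 16 for receptors and polarity genes outside the beta-catenin route and 0 of 19 for the destruction complex and its relay. Nuclear partners and targets had 1 of 16 called. Whether the share of calls differs between these groups was not tested. In the destruction complex and relay, 2 genes had an unadjusted p under 0.05 in the authors' deposited table.

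Sostdc1, a secreted antagonist related to sclerostin, had -2.37 ± 0.58 at 44.2 counts with an adjusted p of 0.0016 in the authors' deposited table. Vangl2, a planar polarity protein, had 0.62 ± 0.16 at 348 counts with an adjusted p of 0.0022 in the authors' deposited table. The signal enhancers Rspo2 and Rspo3 were called at -1.69 ± 0.41 and -0.79 ± 0.24, and their receptor Lgr5 at 2.49 ± 0.43, in the authors' deposited table. Igfbp4, a binding protein of insulin-like growth factors that also blocks Wnt receptors, had -0.42 ± 0.15, and Lef1, a nuclear partner active in B cell precursors, had 1.32 ± 0.19, in the authors' deposited table. The called genes whose products are secreted, namely Sfrp2, Rspo2, Rspo3, Sostdc1 and Igfbp4, were all negative, and they include both enhancers and inhibitors of the pathway, a grouping made after their values were seen.

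m6A peaks were found on 14 members, 24 peaks in all. The authors' deposited table of peaks held 13083 peaks in 6847 genes. Of the 39 tested members 35.9% had a peak, beside 44.3% of all tested genes, and the share among all tested genes grew with the mean count. At a mean of 1000 counts or more, 6 of 8 members had a peak, beside 65.7% of genes, and from 100 to 500 counts 5 of 13 members had one, beside 27.7% of genes. Under 100 counts 2 of 12 members (16.7%), Dkk2 and Wnt16, had a peak, beside 6.32% of genes. From 500 to 1000 counts only Fzd4 of 6 members had a peak, beside 46.4% of genes. Ctnnb1 and Lrp5, both above 1000 counts, carried no peak in the authors' deposited table.

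Lrp6 carried 5 peaks, Axin1 carried 4, Fzd7, Axin2 and Dkk2 carried 2 each, and Fzd4, Lrp4, Nkd2, Sfrp1, Sfrp2, Sfrp4, Wls, Wnt4 and Wnt16 carried 1 each in the authors' deposited table. The enrichment of IP over input had a median of 1.76, beside 1.82 over all peaks, and 9 of the 24 (37.5%) reached 2, beside 37.3% of all peaks. The most enriched peak was that of Fzd4 on chromosome 7, from 89407870 to 89408417, with 2.93 over 548 exonic bases in the authors' deposited table, above 95.3% of all peaks. The last peak of Axin1 on chromosome 17, from 26193989 to 26195016, followed with 2.87 over 200 exonic bases in 2 exon blocks in the authors' deposited table. Wnt4 had the weakest, with 1.09 on chromosome 4, from 137296473 to 137296572, in the authors' deposited table.

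The most enriched peaks of the remaining roles lay between 1.78 and 2.75. Among the antagonists it was a Dkk2 peak on chromosome 3, from 132085490 to 132085588, with 2.75 in the authors' deposited table. The single Lrp4 peak on chromosome 2, from 91512109 to 91512259, had 2.43, the highest of the coreceptors, in the authors' deposited table. The Wnt16 peak on chromosome 6, from 22297885 to 22297983, had 2.0, the higher of the 2 ligand peaks, in the authors' deposited table. Wls had 1 peak on chromosome 3, from 159937193 to 159937442, with 1.78, and Sfrp2 had 1 on the same chromosome, from 83769335 to 83773192 in 2 exon blocks, with 1.87, in the authors' deposited table. Coordinates are those of the peak table, counted from 1, whose build the table does not state. All 24 peaks lay inside the gene of their name on GRCm38.p6, and 19 consisted of 1 exon block (79.2%, beside 59.9% of all peaks).

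**Figure D4:**
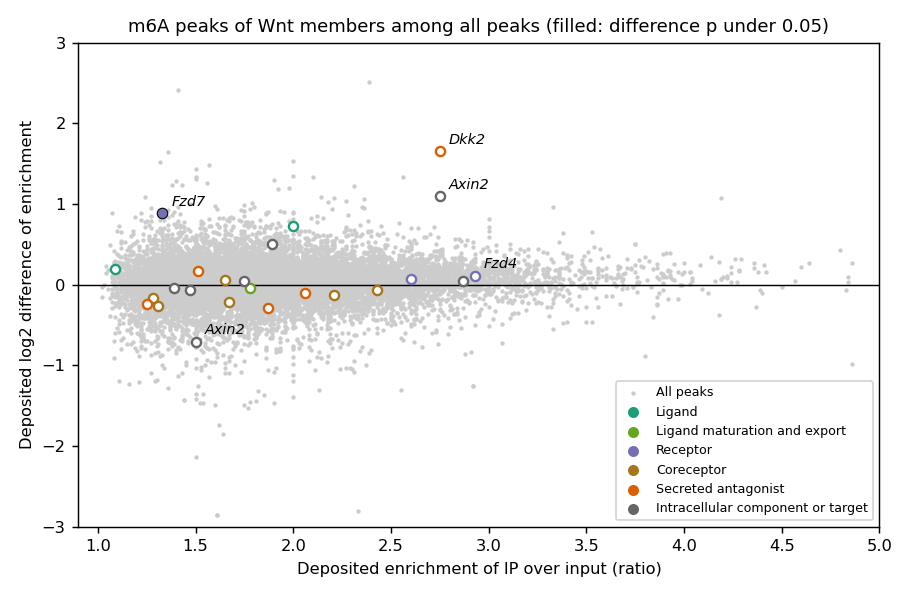
Enrichment of IP over input (horizontal, ratio) against the log2 difference in enrichment between arms (vertical, sign as deposited) for all 13083 peaks (grey) and the 24 member peaks (coloured by role, filled where the difference p is under 0.05). The first Fzd7 peak is the filled point, at 1.33 and 0.89, while the first Dkk2 and Axin2 peaks at 1.66 and 1.10 have difference p-values of 0.947 and 0.625; 10 peaks lie beyond the horizontal axis.

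The difference of m6A between the arms ran from -0.71 to 1.66 on the log2 scale over the member peaks. Of the 24 peaks 12 were positive and 12 negative, with a median of 0.00, in the authors' deposited table. Among all peaks 60.6% were positive, with a median of 0.05. Of the member peaks 1 had a difference p under 0.05 in the authors' deposited table (4.17%), beside a background of 4.92% of all peaks. At a false discovery rate (FDR) under 0.05 no member peak was called, beside 0.0229% of all peaks. The 1 peak was the first of Fzd7, on chromosome 1 from 59482345 to 59482444, with a log2 difference of 0.89, a p of 0.00955 and an FDR of 0.684 in the authors' deposited table. Its enrichment of 1.33 exceeded that of only 8.49% of all peaks. The second Fzd7 peak, on the same chromosome from 59484675 to 59485022, had an enrichment of 2.60 and a difference of 0.07 (p = 0.879) in the authors' deposited table.

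Among the other members whose RNA was called, the log2 difference was -0.06 for Lrp4 (p = 0.562), -0.29 for Sfrp2 (p = 0.356) and -0.04 for Wls (p = 0.787) in the authors' deposited table, and Porcn had no peak. The widest difference was 1.66, at the first peak of Dkk2 (p = 0.947), a gene with 50.8 counts, and Wnt16 had 0.73 (p = 0.846), in the authors' deposited table. Axin2 had 1.10 at its first peak (p = 0.625) and -0.71 at its second (p = 0.530) in the authors' deposited table. The 5 peaks of Lrp6 ran from -0.27 to 0.06 and the 4 of Axin1 from -0.07 to 0.04 in the authors' deposited table. The deposited peaks carry no standard error, so no interval of the difference can be given.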

How the data were processed

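Bone RNA (input) and m6A immunoprecipitates were sequenced after ovariectomy or sham operation, 4 libraries of each kind per arm. Per the labels' protocols, the library kit was stranded and marked molecules with unique identifiers. Per the submitters' processing notes the tools included HISAT2, StringTie and DESeq, with no version, and the build was rn6, which is of rat although the samples are of mouse. The RNA table, per the file headers, holds what the authors deposited for each gene: the mean normalized count as a signal, the log2 fold change and its standard error, the Wald statistic as a score, and a raw and an adjusted p-value. Recomputing the Benjamini-Hochberg adjustment over the 15396 genes with an adjusted p, whose lowest mean was 12.4, gave the deposited values back. The peak table, per the file headers, holds the authors' p-value of each peak, its log10 values, the ratio of IP over input, and the log2 difference in enrichment, whose p and FDR are deposited on a log10 scale (treated as a score, since some lie far below the usual range). The sources used here name no peak caller and do not say how replicates entered it.

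The tables hold no column of values per library, so no model across genes was fitted here, and the calls are the authors'. Counts per library read for the 10 members with low means are given as values with no test. Intervals are the fold change ± 1.96 standard errors. Whole counts per library were read from means under 16 by finding all sums of whole counts times the 8 library steps within 1e-13 of the mean. The reading was tested on simulated data with means of at most 3 and gave back the counts in 289 of 289 cases. Fzd10os, Fzd10, Wnt10a and Wnt6 have larger means, a range in which no simulation was run. In 379 genes with a mean under 3 and counts in several libraries of both arms, the log2 ratio of arm means was also read this way. It differed from the deposited fold change by a median of 0.02. Size factors of the 8 input libraries lay between 0.867 and 1.24, and total depth is not in the tables. Every member with an adjusted p was named, and peaks were named where the difference p was under 0.05, where RNA was called or where enrichment was highest in a role; further peaks were named after their values were seen. Members and lists were chosen with earlier results of these data known. Symbols of all 48 members matched RefSeq on GRCm38.p6. Promoter sequences are from RefSeq (GRCm38.p6), without the 50 bases after the start. Python 3.11.15, numpy 2.4.6, pandas 2.3.3 and matplotlib 3.10.9 were used. Other thresholds, adjustments and peak filters were tried as alternatives.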

Additional observations from a re-analysis of the deposited data

Results flagged for a closer look

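In 7 of 16 groups of 4 libraries with counts, the highest library stood apart from the other 3, in each case because these 3 had 0 counts. Chance flags about 1 in 20 groups, a rate that does not hold for counts this low. On the positive side of the fold change the lone libraries had 8.68 normalized counts of Wnt1, 3.24 of Wnt2 and 6.47 of Wnt3. On the negative side they had 6.32 of Wnt2, 7.54 of Wnt8a, 14.6 of Wnt8b and 6.73 of Wnt9b.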

How the results depend on the processing

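The 5 RNA calls among the members became 2 (Fzd7 and Sfrp2) at an adjusted p under 0.01 and 1 (Sfrp2) when the log2 fold change also had to reach 1 in size. They became 7 with Fzd4 and Sfrp5 at an adjusted p under 0.1, 4 without Porcn when the adjustment ran over every gene with a p, and stayed at the same 5 over genes with a mean of at least 50. The 7 calls among the other pathway genes became 11 at an adjusted p under 0.1, 4 with the fold change limit, 5 at 0.01, 7 over every gene with a p and 6 over genes with a mean of at least 50. The 1 m6A difference among member peaks, that of Fzd7, became 0 at an FDR under 0.05 and 0 among peaks with an enrichment of at least 2, and stayed 1 at a p under 0.01. The 14 members with a peak became 8 with peaks enriched at least 2 times and stayed 14 at a peak FDR under 0.001. These changes follow from the stricter or looser limits themselves. No paired analysis was possible because the tables have no columns per library, and the counts read for 10 low members carry no replicate numbers. Calls could not be refitted with a library left out, and for those 10 members, none of them called, this was not run. The order of members by level per length was not run, for want of transcript lengths. Low counts limit the scarce members: 12 of the 39 tested had a mean under 100, and the median standard error of these was 0.52.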
